A study of Mus musculus with 10 samples.

Results

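The Slc25 genes encode the mitochondrial carrier family, and all protein-coding genes whose symbol begins with Slc25a were taken as members. The gene table held 47 such genes among 54347 gene records, and 1 further record with this name, the pseudogene Slc25a5-ps, was left out by its biotype. The data were estimated read counts from poly A RNA of the interscapular brown fat depot (iBAT), which lies between the shoulder blades and makes heat, of 10 mice on the C57BL/6N background. Of these, 5 were knockouts labelled ko (ΔGm15551, replicates 1, 2, 4, 5 and 7), in which CRISPR/Cas9 had removed a stretch with exon 1 of the long non-coding RNA gene Gm15551, and 5 were wild-type litter mates labelled wt (replicates 2, 3, 5, 6 and 7). All 10 mice were 12 weeks old and had been housed singly at 4 °C for 24 h, so both groups were cold treated and no mouse at another temperature was analysed here. The comparison addressed whether loss of Gm15551 alters gene expression in cold-activated iBAT.

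Mitochondrial carriers are small proteins that mostly sit in the inner membrane and exchange nucleotides, phosphate, carboxylates, amino acids, carnitine esters, cofactors and metal ions between cytosol and matrix. In brown adipocytes, which burn fatty acids to make heat, acylcarnitines, ADP and phosphate all enter the matrix through members of this family. The uncoupling protein Ucp1 belongs to the same protein family but carries another symbol, and was therefore treated with the other transporters.

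Upstream sequences of 3 members are shown because the results turn on these genes: Slc25a5 had the highest level per kb of exon, Slc25a1 (the citrate carrier) was among the 6 highest on this scale, and Slc25a38 (the mitochondrial glycine carrier of haem synthesis) was the only member at an unadjusted p under 0.05. They were chosen after the values were seen. The sequences are the 250 bases before the RefSeq start in GRCm38.p6 (242 for Slc25a38, where bases inside an annotated exon were left off), written 5′ to 3′ on the strand of the gene, with motif matches on either strand in capitals. Slc25a5 lies on the + strand at chrX:36795347-36795596, Slc25a1 on the - strand at chr16:17928220-17928469 and Slc25a38 on the + strand at chr9:120110132-120110373.
Slc25a5: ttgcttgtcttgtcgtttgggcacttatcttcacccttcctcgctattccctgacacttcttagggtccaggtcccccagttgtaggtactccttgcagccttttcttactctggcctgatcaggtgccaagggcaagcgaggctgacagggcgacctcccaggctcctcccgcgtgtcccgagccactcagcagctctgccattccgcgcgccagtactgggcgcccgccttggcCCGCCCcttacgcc
Slc25a1: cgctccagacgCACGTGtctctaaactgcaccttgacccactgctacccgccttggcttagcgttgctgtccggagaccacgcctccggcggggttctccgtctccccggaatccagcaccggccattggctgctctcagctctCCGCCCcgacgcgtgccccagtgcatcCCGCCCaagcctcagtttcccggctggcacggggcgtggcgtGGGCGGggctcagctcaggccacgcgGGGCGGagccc
Slc25a38: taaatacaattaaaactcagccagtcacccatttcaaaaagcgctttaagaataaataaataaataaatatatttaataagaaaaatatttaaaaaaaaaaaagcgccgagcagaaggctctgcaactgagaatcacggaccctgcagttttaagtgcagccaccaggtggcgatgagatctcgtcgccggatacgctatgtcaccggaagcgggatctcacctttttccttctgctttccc

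The motifs searched were GGGCGG (the GC box), CACGTG (the E box), TGACGTCA (the cAMP response element) and AAGGTCA (a nuclear receptor site), on both strands of these windows. The Slc25a5 window held 1 GC box, the Slc25a1 window held 4 GC boxes and 1 E box, and the Slc25a38 window held none of the 4 motifs. Upstream windows were at hand for 36 of the 47 members. Among these, 25 (69.4%) had a GC box in at least 1 window, beside 45.8% of 17492 protein-coding genes and 35.4% of all 27025 genes with a window. An E box was present in 7 members (19.4%, beside 7.61% of protein-coding genes), namely Slc25a1, Slc25a13, Slc25a14, Slc25a15, Slc25a31, Slc25a33 and Slc25a36. The cAMP response element occurred in Slc25a25 and Slc25a36 (5.56%, beside 2.2%), and the nuclear receptor site in Slc25a34 (2.78%, beside 4.18%). These shares describe letters in a window and were not tested.

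The total count per mouse ranged from 9680976 (wild-type replicate 7) to 15771170. Gm15551 itself had 0 counts in all 5 ΔGm15551 mice and 1, 2, 6, 7 and 0 counts in wild-type replicates 2, 3, 5, 6 and 7, so the target was close to the limit of detection in the wild type as well. A count of 0 allows up to 3 counts, which is 0.31 CPM in wild-type replicate 7. The tissue label was checked on 12 brown adipocyte markers, all of which were detected, with Ucp1 between 5747 and 10990 CPM (counts of a gene per 1000000 counts of the mouse, scaled by the TMM method). Of 7 white adipose markers, Tcf21 was at 0 in all mice and Lep alone passed the filter on low counts (means of 5.16 ± 2.41 CPM in 5 ΔGm15551 mice and 11.3 ± 4.27 CPM in 5 wild-type mice, SD, not called after adjustment). The summed level of 10 skeletal muscle genes ran from 1.14 to 1573 CPM among knockouts and from 1.43 to 2683 CPM among wild types, with the highest values in wild-type replicate 7, ΔGm15551 replicate 4 and ΔGm15551 replicate 1. As the samples are bulk tissue, fewer cells of a type and less RNA per cell cannot be told apart.

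Together, the 47 members took 0.510 to 0.646% of the counts in ΔGm15551 and 0.519 to 0.674% in wild type. A filter on low counts (filterByExpr) kept 39 members. The other 8 had few or no reads: Slc25a31, the testis-type ADP/ATP carrier, had 0 to 24 counts per mouse, Slc25a18 had 2 to 13, Slc25a43 had 1 to 10, Slc25a13 had 0 to 8, Slc25a2 had 1 to 6, Slc25a21 had 0 or 1, and Slc25a41 and Slc25a54 were at 0 in all 10 mice. Because the filter acts on all genes alike, values below describe the 39 members that passed it and not the whole family.

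The members are spread over 19 chromosomes, and 4 pairs lie within 50 kb of each other (positions from GENCODE M21, GRCm38). In 3 of the pairs a member that passed the filter sits beside one that did not. Slc25a54 (chr3:109080469-109116687) had no count, while Slc25a24, an ATP-Mg/phosphate carrier that starts 6461 bases further on, had 71 to 157 counts. Slc25a41 (chr17:57032773-57041654) had no count, and Slc25a23, of the same carrier type and 2056 bases away, had 425 to 1585. Slc25a43 (chrX:36743659-36777202) stayed at or below 10 counts, and Slc25a5, which had the highest level per kb of exon, begins 18448 bases from its end. Slc25a29 and Slc25a47 on chromosome 12, which both passed the filter, lie head to head on opposite strands with 162 bases between them.

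To compare members with each other, CPM were divided by the length of the merged exons in kb. The adenine nucleotide translocators stood at the top, with Slc25a5 (ANT2) at 342 ± 37.5 CPM per kb (SD, n = 10) and Slc25a4 (ANT1) at 209 ± 20.6. Slc25a39, the glutathione carrier, followed with 199 ± 21.0, Slc25a20, the carnitine/acylcarnitine carrier, with 153 ± 18.8, Slc25a51, the NAD carrier, with 149 ± 26.6, and Slc25a1 with 93.3 ± 18.6 CPM per kb. Further down were Slc25a17 (a peroxisomal carrier of cofactors, 91.7), Slc25a11 (the oxoglutarate/malate carrier, 87.1), Slc25a42 (a coenzyme A carrier, 71.0), Slc25a34 (62.6) and Slc25a3 (the phosphate carrier, 56.1). At the low end of the tested members, Slc25a53 reached 0.254 CPM per kb.

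Neighbours in this order often changed place between mice. Slc25a5 was above Slc25a4 in 10 of 10 mice and their ranges over mice did not overlap, with a median ratio per kb of 1.60. This ratio was lowest in wild-type replicate 7 (1.23) and highest in wild-type replicate 3 (2.13). Slc25a4 was above Slc25a39 in 8 of 10 mice, Slc25a39 above Slc25a20 in 10, Slc25a20 above Slc25a51 in 7, Slc25a51 above Slc25a1 in 10 and Slc25a1 above Slc25a17 in 5, all with overlapping ranges. When the longest transcript was taken as the length, 5 of the 6 leading members were the same and Slc25a17 took the place of Slc25a1, with Slc25a4 behind Slc25a39 and Slc25a20. About 49.4% of the 31-base words of Slc25a5 also occur in 13 other gene records, among them the pseudogene Slc25a5-ps. These records together held 18 counts against 73186 on Slc25a5, so the assignment of shared reads rests on salmon's estimate. No word of Slc25a4, Slc25a39, Slc25a1 or Slc25a38 was shared with another gene.

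**Figure D1:**
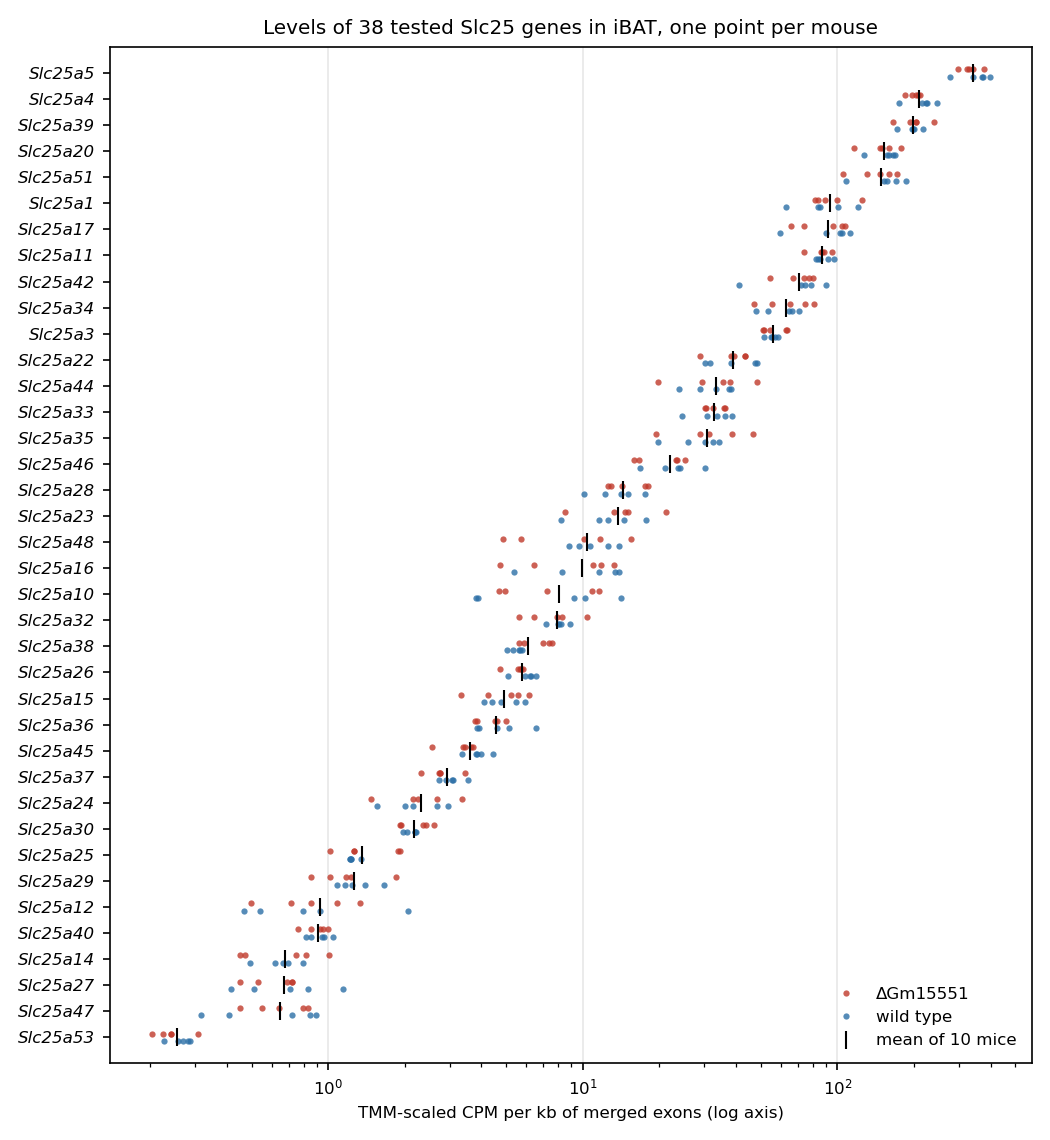
Levels of 38 tested Slc25 genes in iBAT. The x axis gives TMM-scaled CPM per kb of merged exons on a log axis, each point is 1 mouse (red, ΔGm15551; blue, wild type) and the black tick is the mean of 10 mice; the genes run from 0.254 (Slc25a53) to 342 (Slc25a5), and red and blue points overlap for every gene shown.

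No Slc25 gene differed between ΔGm15551 and wild-type mice at an adjusted p under 0.05 (edgeR quasi-likelihood test, Benjamini-Hochberg over 13732 genes), and neither did any other gene (background 0%). At an unadjusted p under 0.05, 1 of the 39 members was called (2.56%, Slc25a38), beside a background of 1.59% of all genes tested. This member was higher in ΔGm15551 (background 0.961% higher and 0.634% lower). DESeq2 and limma-voom likewise gave 0 members at an adjusted p under 0.05 and 1 at an unadjusted p under 0.05, beside 1.66% (DESeq2) and 1.81% (limma-voom) of all genes. In no member did all 5 mice of 1 group lie above all 5 of the other, beside a background of 0.226% of genes with all ΔGm15551 mice higher and 0.0947% with all lower. The p-values weigh each difference between the groups against the variation between these mice.

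The log2 fold change (log2FC, ΔGm15551 minus wild type) ran from -0.22 (Slc25a48) to 0.29 (Slc25a38) over the members. It was above 0 in 16 members (41%, background 49.7%) and below 0 in 23. The median was -0.031 over members and -0.00087 over all genes tested. The member median turned positive without ΔGm15551 replicate 1 (0.026), without wild-type replicates 5, 6 and 7 (0.033) and in the 6 mice with shared replicate numbers (0.070 with and 0.082 without the block). The median size of the log2FC was 0.083 over members and 0.094 over all genes. For all 39 members the 95% interval of limma-voom lay between -1 and 1, so that a 2-fold difference was outside it (background 90%), and for 22 members (56.4%, background 54.9%) it lay between -0.5 and 0.5. The differences between these shares were not tested.

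**Figure D2:**
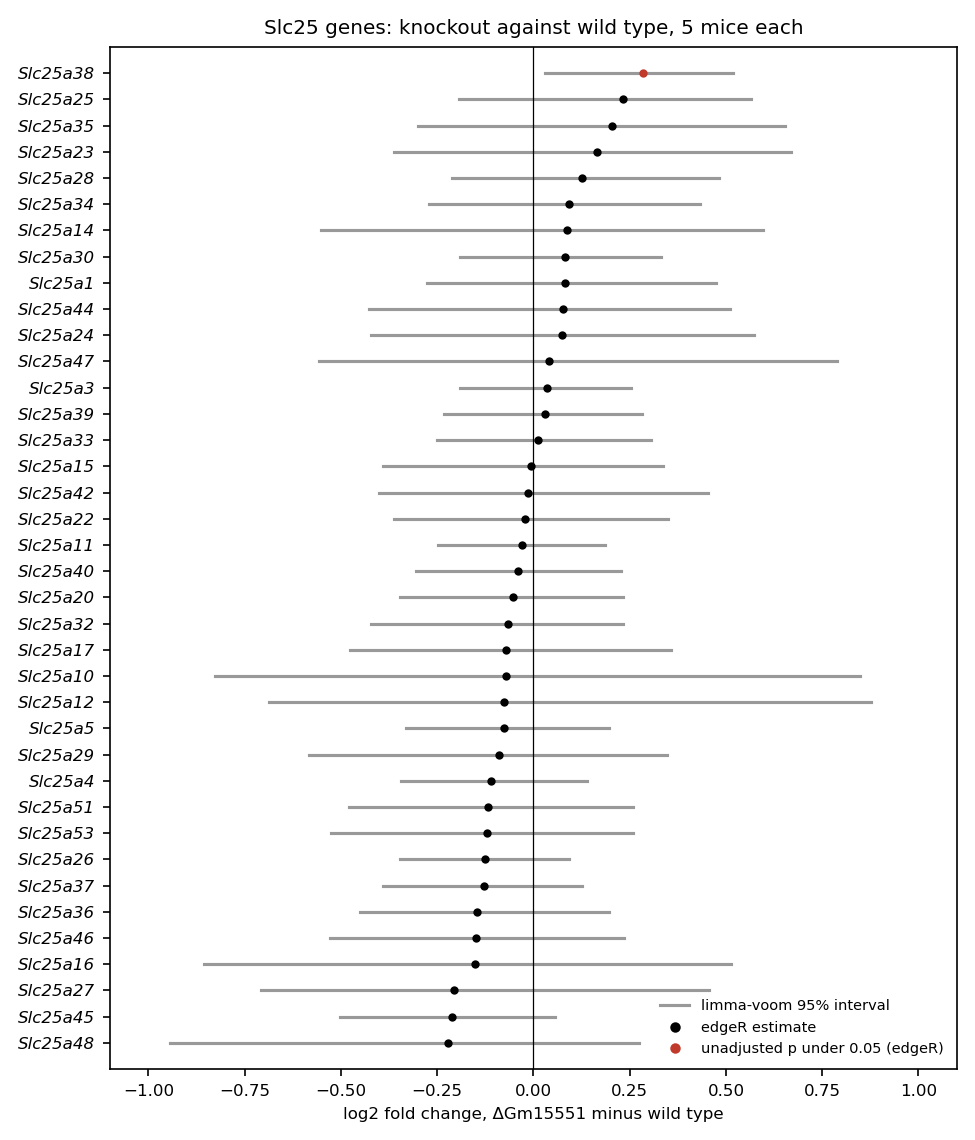
Difference between ΔGm15551 and wild-type mice (5 each) for 38 tested Slc25 genes. Points give the log2FC of edgeR, grey lines the 95% interval of limma-voom, and the red point marks Slc25a38, the only gene at an unadjusted p under 0.05 (log2FC 0.29); the intervals of all other genes shown include 0 and none reaches -1 or 1.

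The amino acid carriers held the member with the smallest p. Slc25a38 (chr9:120110374-120124504, + strand), which brings glycine into the matrix for the first step of haem synthesis, had 20.3, 15.4, 16.1, 20.8 and 19.2 CPM in ΔGm15551 replicates 1, 2, 4, 5 and 7, and 15.85, 13.9, 15.4, 15.6 and 14.6 CPM in wild-type replicates 2, 3, 5, 6 and 7. In 4 of 5 ΔGm15551 mice it was above all wild-type mice, and replicate 2 lay within the wild-type range. Means were 18.4 ± 2.45 and 15.1 ± 0.818 CPM (SD, 5 mice each) and the log2FC was 0.29 ± 0.11 (SE). In edgeR this gave a p of 0.0236 before adjustment and of 0.999809 after it, a value that all 39 members shared. The unadjusted p was 0.0572 without ΔGm15551 replicate 1, 0.0596 without ΔGm15551 replicate 5 and 0.0513 without wild-type replicate 3. It was 0.110 without wild-type replicates 5, 6 and 7, 0.0567 with limma-voom quality weights, and 0.193 and 0.124 in the 6 mice with shared replicate numbers, with and without the number as a block, while the log2FC kept its sign in all 22 alternative fits (0.21 to 0.34). Slc25a44, which imports branched-chain amino acids for oxidation in brown fat, had 70.7, 173, 128, 105 and 135 CPM in the knockouts and 103, 134, 120, 137 and 85.1 CPM in the wild types, listed by replicate in the same order. The groups overlapped almost fully (log2FC 0.077 ± 0.21), and the lowest mouse of each group was ΔGm15551 replicate 1 and wild-type replicate 7. In the 6 mice with shared replicate numbers the log2FC of Slc25a44 was 0.41 with the block and 0.42 without it (unadjusted p of 0.117 and 0.0728). Slc25a15, the ornithine carrier (log2FC -0.0054), and Slc25a29, a carrier of basic amino acids (-0.090), did not pass the test either.

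The carriers that supply oxidative phosphorylation did not differ beyond their spread, with 3 of 4 tested, 1 with a positive log2FC, 2 with a negative one and none called. In the same order of replicates, Slc25a5 had 531, 490, 544, 559 and 619 CPM in the knockouts and 609, 613, 655, 560 and 456 CPM in the wild types. Slc25a4 (chr8:46206797-46211284), the ADP/ATP carrier of heart and muscle, had 479, 487, 499, 462 and 434 CPM in the knockouts and 506, 411, 577, 523 and 531 CPM in the wild types. For both genes the range of wild type enclosed that of ΔGm15551, with log2FC of -0.077 ± 0.12 and -0.11 ± 0.11 (SE). Slc25a3, which imports phosphate for ATP synthesis, had 286, 284, 302, 353 and 350 CPM in the knockouts and 287, 304, 307, 325 and 315 CPM in the wild types (log2FC 0.035 ± 0.11). With 7.95% over the 10 mice it had the second smallest coefficient of variation (CV, SD over mean) of the tested members.

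Slc25a20 (chr9:108662088-108684641), through which acylcarnitines reach beta-oxidation, had 563, 771, 726, 715 and 861 CPM in the knockouts and 776, 762, 803, 817 and 615 CPM in the wild types. ΔGm15551 replicate 1 and wild-type replicate 7 were the lowest mice, and the groups did not differ beyond their spread (log2FC -0.053 ± 0.13). About 8.83% of the 31-base words of Slc25a20 occur in other gene records.

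Of the ATP-Mg/phosphate carriers, which set the matrix nucleotide pool in response to calcium, 3 of 4 were tested and all 3 had a positive log2FC (0.075 to 0.23), none of which passed the test. Slc25a25 had 14.8, 7.96, 9.97, 15.03 and 9.92 CPM in the knockouts and 9.58, 9.68, 10.6, 9.57 and 9.65 CPM in the wild types. The wild-type mice lay close together, and the log2FC of 0.23 ± 0.17 (SE, unadjusted p of 0.195) came from ΔGm15551 replicates 1 and 5. These were also the highest mice for Slc25a38. Without ΔGm15551 replicate 2, the lowest mouse, the log2FC of Slc25a25 was 0.34 with an unadjusted p of 0.0463, whereas it was 0.13 without replicate 1 (0.464), 0.12 without replicate 5 (0.493) and 0.063 with limma-voom quality weights (0.660; unadjusted p in parentheses).

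The di- and tricarboxylate carriers differed in how evenly they were expressed. Slc25a11, part of the malate/aspartate shuttle, had 156, 202, 187, 183 and 185 CPM in the knockouts and 181, 178, 205, 195 and 175 CPM in the wild types, with the lowest CV of the tested members (7.65%). On the opposite strand, Rnf167 overlaps 8.92% of its exon bases. Slc25a1, which exports citrate for fatty acid synthesis, had 177, 193, 182, 269 and 216 CPM in the knockouts and 136, 181, 185, 261 and 218 CPM in the wild types (log2FC 0.081 ± 0.17). Slc25a10, which exchanges malate and succinate for phosphate, had 37.6, 16.2, 25, 40.0 and 17.1 CPM in the knockouts and 13.4, 13.1, 31.9, 48.8 and 35.2 CPM in the wild types. Its values spread over both groups alike, with a CV of 45.4% and a log2FC of -0.072 ± 0.40. Wild-type replicates 5, 6 and 7, whose labels carry a higher series of mouse numbers than the other 7 mice, were all above wild-type replicates 2 and 3. Without these 3 mice the log2FC of Slc25a10 was 1.04, with an unadjusted p of 0.0246, and that of Slc25a1 was 0.39 (0.0863), beside 0.35 and 0.33 in the 6 mice with shared replicate numbers, with and without the block. Whether the number series marks a separate cohort is not stated, and no ΔGm15551 mouse belongs to it, so that the number series and other differences between wild-type mice cannot be told apart.

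The aspartate/glutamate carriers of the same shuttle were low. Slc25a12 (aralar), the form of muscle and brain, had 6.31, 5.26, 9.82, 7.98 and 3.65 CPM in the knockouts and 6.81, 3.43, 5.87, 3.97 and 15.1 CPM in the wild types, and Slc25a13 (citrin), the form of liver, was under the filter with 7, 0, 8, 5 and 7 counts in ΔGm15551 and 8, 6, 3, 2 and 6 counts in wild type. Slc25a12 had the largest CV of the tested members (51.8%), and wild-type replicate 7 stood well above the other mice. This mouse also had the highest summed level of skeletal muscle genes (2683 CPM), and ΔGm15551 replicate 4, the second highest for Slc25a12, was the second highest for muscle genes (1573 CPM). ΔGm15551 replicate 1, next for muscle genes (723 CPM), had less Slc25a12 than ΔGm15551 replicate 5 and wild-type replicate 2. Muscle genes in those mice were at 61.2 and 51.4 CPM. The part of muscle RNA in these values was not tested beyond a fit with the muscle score as covariate, in which the log2FC of Slc25a12 was 0.020 in place of -0.075. Without wild-type replicate 7 it was 0.40, and in the 6 mice with shared replicate numbers it was -0.64 with the block and -0.70 without it, so that its direction depended on which mice were fitted. The glutamate carrier Slc25a22 was more abundant (log2FC -0.023 ± 0.16).

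All 11 nucleotide and cofactor carriers passed the filter, of which 3 had a positive and 8 a negative log2FC and none was called. Slc25a51 (chr4:45395923-45408766), which brings NAD into the matrix, had 582, 808, 944, 722 and 876 CPM in the knockouts and 841, 1029, 934, 863 and 597 CPM in the wild types (log2FC -0.12 ± 0.17). Slc25a39 (chr11:102402985-102407946) had 456, 534, 561, 661 and 560 CPM in the knockouts and 548, 475, 600, 554 and 540 CPM in the wild types (log2FC 0.029 ± 0.12). Its close relative Slc25a40 was 165 to 316 times lower per kb within a mouse, so the pair was uneven in every mouse. Slc25a42, which takes up coenzyme A, had 326, 445, 481, 403 and 464 CPM in the knockouts and 447, 472, 541, 431 and 246 CPM in the wild types (log2FC -0.013 ± 0.19). Slc25a16, also linked to coenzyme A, had 22.7, 63.7, 52.5, 30.99 and 56.6 CPM in the knockouts and 39.8, 55.4, 64.0, 66.4 and 25.9 CPM in the wild types. With a CV of 34.7% it was the third most variable member, and its 2 lowest mice, ΔGm15551 replicate 1 and wild-type replicate 7, came from different groups (log2FC -0.15 ± 0.31).

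The mitoferrins, which import iron, had log2FC of opposite sign. Slc25a28 (mitoferrin 2), the general form, had 53.6, 65.7, 48.2, 67.9 and 47.1 CPM in the knockouts and 52.8, 37.8, 45.9, 56.2 and 65.9 CPM in the wild types (log2FC 0.13 ± 0.16). Slc25a37 (mitoferrin 1), the form of red cell precursors, had 20.8, 16.5, 16.6, 13.96 and 16.4 CPM in the knockouts and 18.5, 16.4, 17.5, 18.5 and 21.3 CPM in the wild types (log2FC -0.13 ± 0.12). Neither passed the test. With single mice left out, the log2FC of Slc25a28 ran from 0.034 (without wild-type replicate 3) to 0.23 (without wild-type replicate 7), and that of Slc25a37 from -0.22 (without ΔGm15551 replicate 1) to -0.071 (without ΔGm15551 replicate 5). Slc25a28 was also at 0.051 without ΔGm15551 replicate 5 and 0.066 without replicate 2, and Slc25a37 at -0.075 without wild-type replicate 7. Per kb Slc25a28 was 3.69 to 7.81 times as high as Slc25a37 in each mouse. The highest mice for Slc25a37 were wild-type replicate 7 and ΔGm15551 replicate 1, which also had the highest summed levels of 5 red blood cell genes (2544 and 1751 CPM, against 614 to 1435 CPM in the other mice). Other mice did not follow this order. ΔGm15551 replicate 5 had the next highest sum (1435 CPM) but the lowest Slc25a37 (13.96 CPM). Wild-type replicate 2 had the lowest sum (614 CPM), with Slc25a37 at 18.5 CPM. The part of blood RNA in the Slc25a37 values was not tested.

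Of the 3 relatives of the uncoupling proteins (Slc25a14, Slc25a27 and Slc25a30), 2 had a positive and 1 a negative log2FC (-0.21 to 0.088), and 7 of the 9 carriers without a settled substrate were tested, with 3 positive and 4 negative values (-0.22 to 0.21). Slc25a34, the most abundant of the latter per kb, had 148, 216, 199, 174 and 126 CPM in the knockouts and 178, 172, 188, 143 and 128 CPM in the wild types (log2FC 0.093 ± 0.16). Slc25a45 had 9.54, 10.1, 9.38, 10.2 and 7.08 CPM in the knockouts and 10.7, 10.96, 12.2, 10.5 and 9.24 CPM in the wild types. It had the second smallest p of the family (log2FC -0.21 ± 0.13, unadjusted p of 0.124). Without ΔGm15551 replicate 7 the log2FC was -0.13 (unadjusted p of 0.298), and with limma-voom quality weights it was -0.32 (0.0219). ΔGm15551 mice 1, 2, 4 and 5 lay within the wild-type range while replicate 7 was below it. Slc25a35 shares 31.3% of its exon bases with Rangrf on the opposite strand, and as the use of strand in counting is not stated, reads of the pair may not be separated.

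The members varied between mice about as much as other genes. The median CV over the 10 mice was 18.4% for members and 18.5% for all genes tested. The summed level of the members was 5019 CPM in ΔGm15551 replicate 1 and 5158 CPM in wild-type replicate 7, while the other 8 mice had 6067 to 6820 CPM. ΔGm15551 replicate 1 and wild-type replicate 7 were singled out after the member values were seen, which favours a high share among members. They were the 2 lowest for 12 of 39 members (30.8%), beside 15.2% of all genes tested. Among them were Slc25a11, Slc25a16, Slc25a17, Slc25a20, Slc25a22, Slc25a23, Slc25a26, Slc25a35, Slc25a42, Slc25a44 and Slc25a51, and Slc25a37 was the only member for which the same mice were the 2 highest. The 2 mice belong to different groups. Without both, no member was called at an adjusted p under 0.05, and neither was any other gene tested. In that fit the median log2FC over members was -0.015 and Slc25a38 had a log2FC of 0.23 with an unadjusted p of 0.0821 (edgeR).

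The same 2 mice stood apart in other genes. The summed level of the 12 brown adipocyte markers was 12809 CPM in ΔGm15551 replicate 1 and 12677 CPM in wild-type replicate 7, against 15278 to 17414 CPM in the other 8 mice. These 2 mice were the 2 lowest for 5 of the 12 markers. Ucp1 was at 5747 CPM in ΔGm15551 replicate 1 and 6436 CPM in wild-type replicate 7 (8265 to 10990 in the other 8), Cpt1b at 1258 and 1091 (1378 to 1516), Dio2 at 340.0 and 304 (367 to 511), Otop1 at 212 and 202 (278 to 411) and Prdm16 at 25.5 and 21.8 (30.6 to 39.8). They were the 2 highest for 1 marker, Cox8b, a subunit of cytochrome c oxidase (806 and 796 CPM, against 418 to 708), and neither for the remaining 6. Most of the difference in the sum lay in Ucp1: the other 11 markers summed to 7062 CPM in ΔGm15551 replicate 1 and 6241 CPM in wild-type replicate 7, beside 6278 to 7579 CPM in the other 8 mice, a sum in which the more abundant genes weigh most. The summed levels of 5 endothelial markers (1308 and 1222 CPM, against 727 to 1137 CPM) and of the red blood cell genes were highest in them. Taken singly, the endothelial markers Cdh5 and Tie1 were highest in ΔGm15551 replicate 5 (355 and 118 CPM). Muscle genes were at 723 CPM in ΔGm15551 replicate 1, 2683 CPM in wild-type replicate 7 and 1573 CPM in ΔGm15551 replicate 4. The part of these differences in tissue makeup in the carrier levels was not tested.

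**Figure D3:**
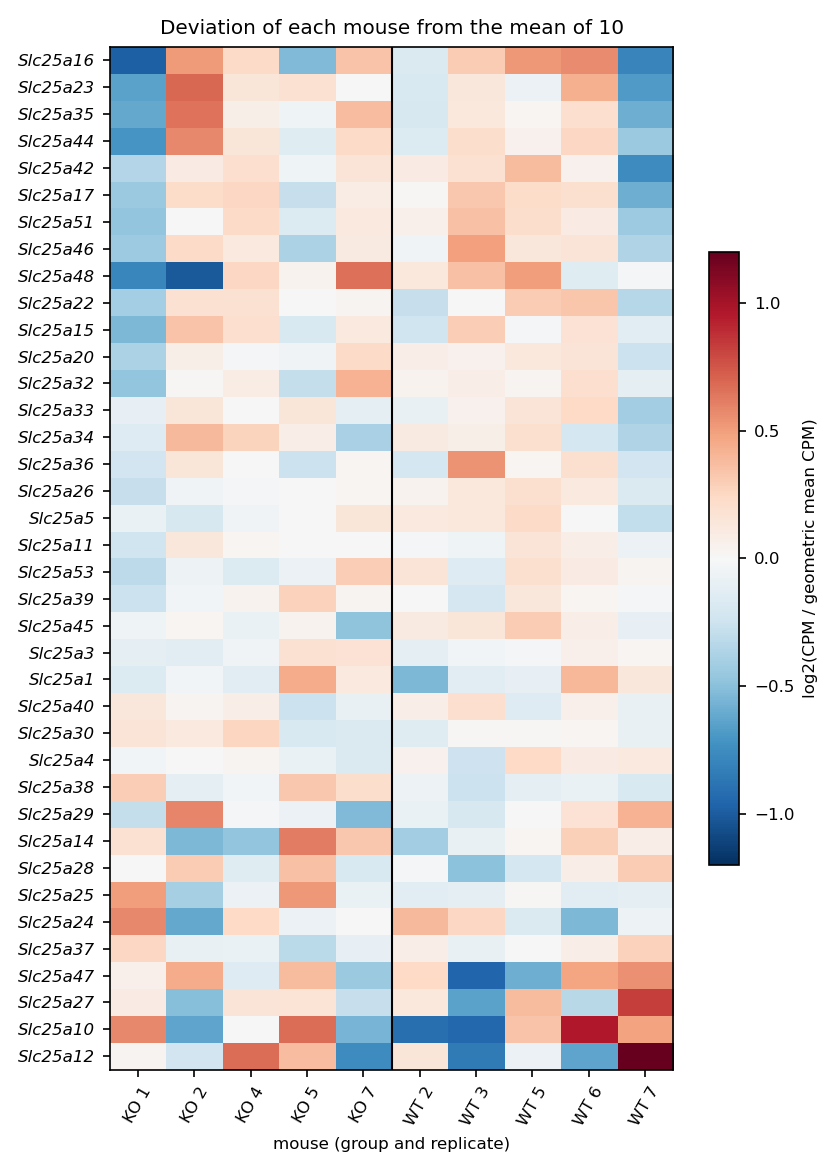
Deviation of each mouse from the geometric mean of the 10 mice for 38 tested Slc25 genes. Columns are mice (KO, ΔGm15551; WT, wild type; the number is the replicate), the colour gives log2 of CPM over the mean (blue lower, red higher), and rows are sorted by the mean deviation of KO 1 and WT 7; these 2 columns are blue for most genes in the upper part, and no row divides the groups at the black line.

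**Figure D4:**
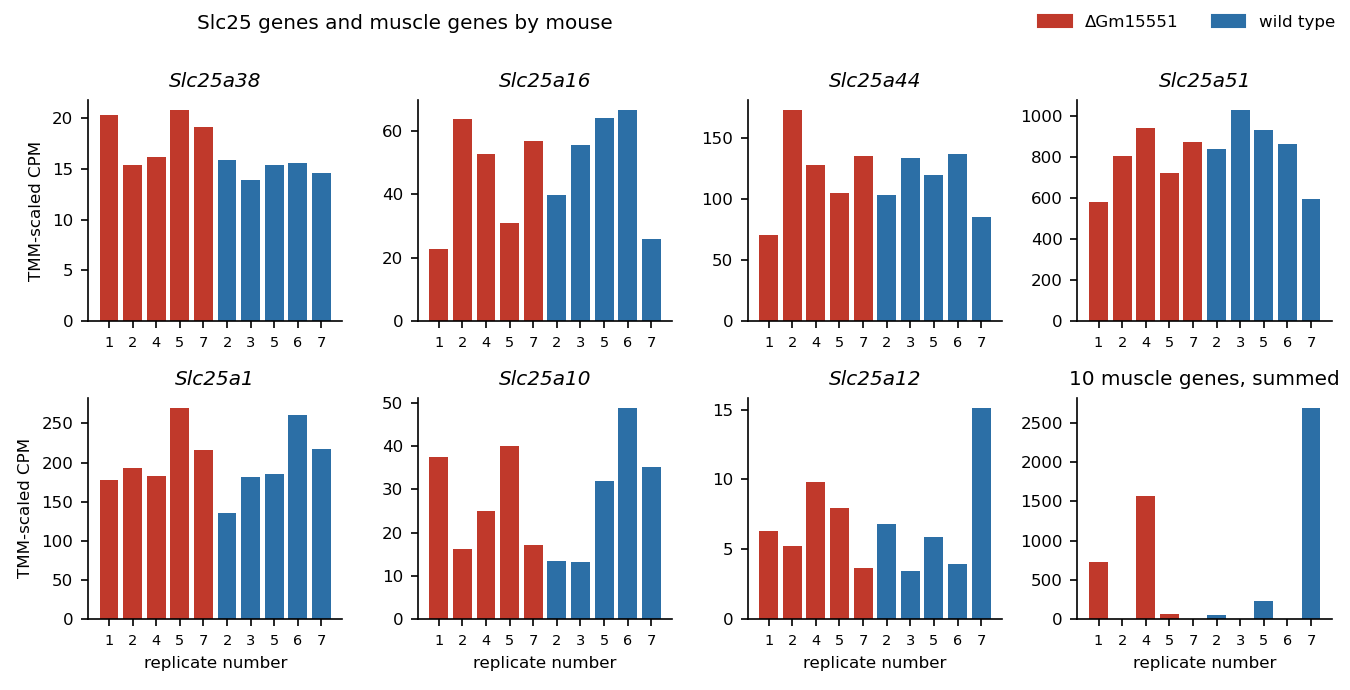
TMM-scaled CPM in each mouse (bars; red, ΔGm15551; blue, wild type; replicate number on the x axis) for 7 Slc25 genes and for the sum of 10 skeletal muscle genes. Slc25a16, Slc25a44 and Slc25a51 are lowest in ΔGm15551 replicate 1 and wild-type replicate 7, and Slc25a12 and the muscle genes are highest in wild-type replicate 7.

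A list of 26 other mitochondrial transporters was compared in the same fit. Of these, 25 passed the filter (Mcub did not), 11 had a positive and 14 a negative log2FC, and none was called at an unadjusted p under 0.05 (background 1.59% of all genes tested). Ucp1, which lets protons leak back to make heat, had a log2FC of 0.15 ± 0.18 (mean 9135 ± 2143 CPM over 5 knockouts, 8244 ± 1058 over 5 wild types, SD). The subunits of the pyruvate carrier had log2FC of 0.070 ± 0.11 (Mpc1) and 0.083 ± 0.12 (Mpc2), and the outer membrane channel Vdac1 of -0.11 ± 0.13. Ucp1 made up most of the summed level of this list. The 25 genes other than Ucp1 summed to 4126 CPM in ΔGm15551 replicate 1 and 4188 CPM in wild-type replicate 7, against 4370 to 4781 CPM in the other mice.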

How the data were processed

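Poly A RNA of iBAT from 5 ΔGm15551 and 5 wild-type mice was sequenced. The authors made the deposited estimated counts per gene, which are whole numbers, by cutadapt trimming and salmon quantification on GRCm38 transcripts (GENCODE M22, with or without RNAcentral). Tool versions, the rounding step and the use of strand are not given in the sources used here. Total counts of 9680976 to 15771170 per mouse limit the precision for low genes, and limits at 0 counts cover counting error only.

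The comparison used edgeR 4.0.16 in R 4.3.3 (filterByExpr, minimum count 10, minimum total 15; TMM; glmQLFit with robust estimation; glmQLFTest; genotype as the only term; Benjamini-Hochberg over 13732 genes). DESeq2 1.42.0 and limma 3.58.1 (voom, which also gave the intervals) were alternatives. Fits were tested on simulated data. The CV is the SD over the mean of CPM in 10 mice. Exon lengths came from GENCODE M21 (99.5% of gene IDs found), 31-base words from its transcripts and promoter windows from RefSeq (GRCm38.p6). No pair of libraries of a group agreed within sampling noise (smallest chi-square per degree of freedom 12.6).

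Named with values in every mouse were the 6 members with the highest level per kb, those at an unadjusted p under 0.05 and the 3 with the smallest p, the 3 with the largest CV and 17 members of known role in brown fat or in isoform pairs. Others were chosen after their values were seen, and 1 tested member, counted in all totals, is not reported here by name. Members, lists and tests were chosen with earlier results of these data known.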

Additional observations from a re-analysis of the deposited data

Results flagged for a closer look

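Within each group of 5 mice, a mouse was taken to stand apart if its gap to the nearest other mouse, divided by the range of the group, exceeded 0.71 (Dixon's 95% critical value). Among 78 groups (39 members in ΔGm15551 and in wild type) there were 5 such cases, where chance alone gives about 3.9. Wild-type replicate 7 stood apart for Slc25a12, at 15.1 CPM against 3.43 to 6.81 in the other wild-type mice, and for Slc25a20, at 615 CPM against 762 to 817. ΔGm15551 replicate 1 stood apart for Slc25a26, the S-adenosylmethionine carrier, at 22.8 CPM against 26.8 to 28.04. ΔGm15551 replicate 7 stood apart for Slc25a45, at 7.08 CPM against 9.38 to 10.2. Wild-type replicate 5 stood apart for Slc25a25, at 10.6 CPM against 9.57 to 9.68, a small gap within a narrow group.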

How the results depend on the processing

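No member passed an adjusted p under 0.05 in any of the 22 alternative fits, and neither did any other gene tested. The number at an unadjusted p under 0.05 was 0 to 2 when single mice were left out (0 without ΔGm15551 replicate 1, ΔGm15551 replicate 5 or wild-type replicate 3, with 1.2 to 3.03% of all genes over these 10 fits), 0 without ΔGm15551 replicate 1 and wild-type replicate 7 (chosen after seeing the data, 3.05% of all genes), and 1 in each fit on all 10 mice (1.35 to 3.42% of all genes). That gene was Slc25a38 except with limma-voom quality weights, where it was Slc25a45. Without wild-type replicates 5, 6 and 7 it was Slc25a10 (1.91% of all genes). The replicate numbers 2, 5 and 7 occur in both groups, and the labels do not say whether they pair mice. Same-numbered mice did not deviate together (correlations of -0.077, 0.040 and -0.42). With so few pairs, this cannot decide whether the numbers have a meaning. In these 6 mice, 2 members (Slc25a23 and Slc25a35) were at an unadjusted p under 0.05 with and without the replicate block (5.13%, beside 2.88% of all genes with the block and 4% without it), and the median log2FC was 0.070 with the block and 0.082 without it. The median lay between -0.056 and 0.026 when single mice were left out.

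Of 418 values for 19 named genes, 372 kept their direction and 46 reversed, all of genes that were not called in the main fit. Among the reversals was Slc25a10 without wild-type replicates 5, 6 and 7, which was at an unadjusted p of 0.0246 in that edgeR fit. With the block and without it, in that order, the log2FC was 0.025 and 0.023 for Slc25a11, 0.27 and 0.22 for Slc25a16, 0.10 and 0.097 for Slc25a20, 0.16 and 0.086 for Slc25a42 and 0.040 and 0.020 for Slc25a51. Without wild-type replicates 5, 6 and 7 it was 1.04 for Slc25a10, 0.029 for Slc25a11, 0.37 for Slc25a12, -0.019 for Slc25a34 and 0.043 for Slc25a4. Limma-voom gave 0.011 for Slc25a10, 0.095 for Slc25a12 and 0.026 for Slc25a42, quality weights gave 0.24 for Slc25a12, the muscle score covariate gave 0.020 for Slc25a12 and 0.0035 for Slc25a42, and the fit without ΔGm15551 replicate 1 and wild-type replicate 7 gave 0.41 for Slc25a12. With single mice, or ΔGm15551 replicate 1 and wild-type replicate 7 together, left out, the log2FC ranged from -0.033 to 0.20 for Slc25a1, from -0.26 to 0.21 for Slc25a10, from -0.070 to 0.021 for Slc25a11, from -0.26 to 0.41 for Slc25a12, from -0.32 to 0.016 for Slc25a16, from -0.12 to 0.026 for Slc25a20, from -0.011 to 0.076 for Slc25a3, from -0.0029 to 0.19 for Slc25a34, from -0.044 to 0.092 for Slc25a39, from -0.16 to 0.086 for Slc25a42 and from -0.082 to 0.22 for Slc25a44. In the other alternatives the values farthest from those already given were 0.39 for Slc25a1, 0.32 for Slc25a28, -0.052 for Slc25a37, 0.12 for Slc25a39, -0.15 for Slc25a5 and -0.25 for Slc25a51 without wild-type replicates 5, 6 and 7, -0.29 for Slc25a37 with the block, and -0.70 for Slc25a12, 0.12 for Slc25a3, -0.23 for Slc25a4 and 0.42 for Slc25a44 in the 6 mice without it. The cause of these reversals was not tested. With no filter on low counts 45 members were tested, all but Slc25a41 and Slc25a54, which had no count, and the single member at an unadjusted p under 0.05 was again Slc25a38 (2.22%, beside 2.8% of all genes).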
